A study of Mus musculus with 162 samples.

Results

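Stomach of mice fasted for 8 h and 12 h, called the daytime fast since most of it fell in the light period, was compared with stomach of fed mice. The members are 11 of the 162 libraries of the series, chosen by the organ and time given in the labels: 5 libraries of the fast (3 mice at 8 h and 2 at 12 h) against 6 of the fed state (3 mice at 0 h and 3 at 2 h). In this study male C57BL/6J mice of 8 to 9 weeks were deprived of food for 0 h, 2 h, 8 h, 12 h, 18 h or 22 h, with 3 mice at each time, and 9 organs of each mouse were sequenced. All animals were killed at the same time of day, shortly after the onset of darkness, and only the hour of food withdrawal differed by plan. The mice at 0 h fed freely until they were killed, and those at 2 h lost their food shortly before lights off. The labels give the tissue as stomach, without the region taken, and water was not withdrawn. A further library of 12 h, replicate 3, held 4590060 counts and was left out, as the study had done. The daytime fast also took in the start of the dark period, when mice eat, and so did the time without food of the 2 h mice, which are counted as fed. The question is whether the stomach answers to a fast of up to 12 h that lies mostly in the light period.

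The stomach of the mouse has a glandular part, whose corpus makes acid and pepsinogen and whose antrum makes gastrin and mucus, and a forestomach lined by squamous epithelium. Parietal cells pump protons with an H+/K+ ATPase, chief cells release pepsinogen, and surface and neck cells cover the wall with gel-forming mucins, trefoil factors and gastrokines. Gastrin from G cells of the antrum drives acid through histamine from enterochromaffin-like cells, somatostatin from D cells restrains both, and ghrelin, a hormone that rises before meals, comes mainly from the oxyntic glands.

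Total counts of the 11 libraries ranged from 7273392 to 13769280, with a median of 9394568. At 0 h they were 7568671, 9041572 and 8069226, at 2 h 11285543, 13769280 and 11427513, at 8 h 9394568, 9584554 and 13504980, and at 12 h 8374830 and 7273392. A level is given as CPM, the counts of a gene per 1e6 counts of its library, with the total scaled by edgeR's TMM factor, called normalized CPM, and 3 counts, taken as the floor, equal 0.203 to 0.429 of it. Levels of different genes are not compared, since counts grow with transcript length. A log2 fold change (log2FC) is that of the fast over the fed state, followed by its 95% interval, which belongs to a single gene and is not widened for the number of genes tested.

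The libraries carry the markers of the organ they are labelled with. Of the fixed marker lists, 17 of 17 genes of parietal cells, 5 of 6 of chief cells, 17 of 17 of mucous cells, 20 of 27 of endocrine cells and 25 of 25 of forestomach epithelium passed the filter on low counts. Pepsinogen C (Pgc) lay at 113364 to 172326 with a median of 142419.9 normalized CPM in fed stomach and at 100656, 245377 and 126497 after 8 h and 170096 and 91321 after 12 h. The proton pump subunit Atp4a lay at 3221 to 5866 with a median of 4779.8 in fed stomach and at 5178, 7605 and 4374 after 8 h and 4331 and 2675 after 12 h. Both genes were high in every library, with overlapping groups.

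Several libraries stand apart in transcripts from tissue next to the glands. All 15 skeletal muscle genes, which mark the striated coat of the oesophagus and other striated muscle, were tested, and their summed level was 2894, 2399 and 463 at 0 h, 2046, 1864 and 2174 at 2 h and 66.6, 1942 and 4231 after 8 h and 152.1 and 2235 after 12 h. Libraries 8 h replicate 1 and 12 h replicate 1 thus held little of it, with Myh4 at 0 in both and in 0 h replicate 3, and Acta1 (muscle actin, the most abundant by counts) at 3.55 and 2.19 where the other 9 had 117.5 to 1436. The 25 forestomach genes, led by Krt10, summed to 4357, 13941 and 5005 at 0 h, 5189, 8459 and 7799.6 at 2 h and 10033, 2376 and 15892 after 8 h and 7669.6 and 18144 after 12 h, and none was at 0 in any library. By this sum 8 h replicate 2 was lowest and 12 h replicate 2 highest, and by the mean log2 level of the list 8 h replicate 2 (4.88) was lowest and 8 h replicate 3 (7.23) highest.

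Transcripts of neighbouring organs were uneven too. The 10 liver genes were led by Apoa1 (79.4% of the list's summed CPM), and without it they summed to 181, 85.7 and 838 at 0 h, 97.7, 115.2 and 120.5 at 2 h and 100.5, 237 and 129 after 8 h and 178 and 1426 after 12 h. Albumin (Alb) read 391 in 0 h replicate 3 and 763 in 12 h replicate 2 against 0.789 to 47.6 elsewhere, and Fga and Fgb were at 0 in 8 h replicate 1. Of 24 pancreatic acinar genes 16 were tested. Colipase (Clps) made 98.6% of the sum of all 24, and the rest summed to 678, 493 and 1392 at 0 h, 603, 578 and 567 at 2 h and 621, 703 and 383 after 8 h and 468 and 166.1 after 12 h. Chymotrypsinogen (Ctrb1) reached 129 and 61.5 in 0 h replicates 3 and 1 and 0.0677 to 3.75 in the other 9, and Cela3a was at 0 in all 11. All 10 genes of B and plasma cells, of which 4 were tested and Ighm led, summed to 458 in 8 h replicate 2 and to 13.1 to 145.3 in the others. Apart from fits without these libraries and a fit with the forestomach level as covariate, which called 0 genes (668 at an unadjusted p under 0.05), their part in the result was not tested.

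Sequencing lane followed the fast. All 6 fed libraries and 8 h replicates 1 and 2 were read in lane 5, and 8 h replicate 3 and both libraries of 12 h in lane 6, which holds no fed library. Only 8 h was read in both lanes, so lane can be parted from the fast only weakly, and from 12 h only through the 3 libraries of 8 h. A fit with lane as covariate, which takes the lane effect from the 5 fasted libraries with 8 h and 12 h as 1 group, called 0 genes (190 at an unadjusted p under 0.05). Values within lane 5 compare the 6 fed libraries with 8 h replicates 1 and 2 alone. The 3 leading principal components held 26.3%, 20.8% and 14.5% of the variance. The first set 0 h replicate 3 and 12 h replicate 2 apart on the same side, the second set these 2 on opposite sides, and none of the 3 separated fed from fasted stomach.

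**Figure D1:**
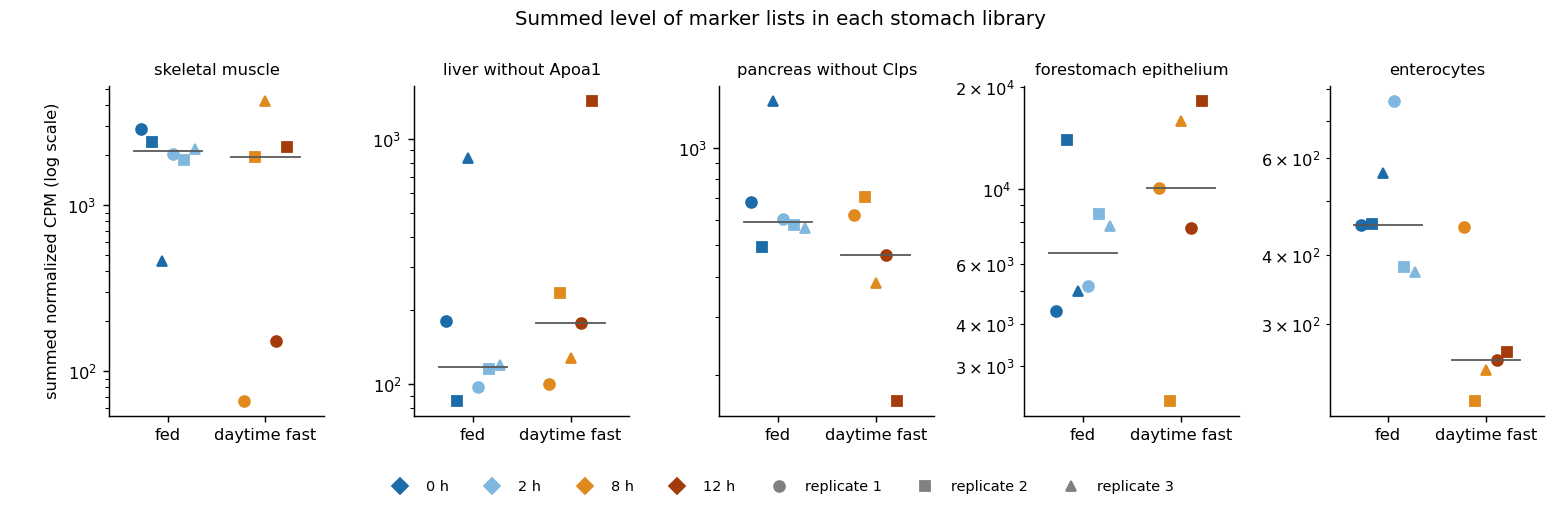
Summed normalized CPM (log scale) of 5 marker lists in each stomach library, fed in blue and fasted in orange (8 h) or brown (12 h), with grey lines at the group medians. Apoa1 and Clps are left out of the liver and pancreas sums, and skeletal muscle transcripts are lowest in 8 h replicate 1 and 12 h replicate 1, and liver transcripts highest in 0 h replicate 3 and 12 h replicate 2.

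No gene passed the test between the daytime fast and the fed state. Of 15704 genes tested with edgeR's quasi-likelihood test, 0 had an adjusted p under 0.05 (0%), the smallest adjusted p was 0.872, and 720 (4.58%) had an unadjusted p under 0.05, 294 (1.87%) with a higher and 426 (2.71%) with a lower level in the fast. DESeq2 also called 0 (unadjusted p under 0.05 in 872, smallest adjusted p 0.0511), as did limma voom with quality weights (1713, 0.259). Within lane 5 edgeR called 0 of 15338 genes, with 245 at an unadjusted p under 0.05. The median log2FC of all genes tested was -0.01 and the median absolute log2FC 0.14. A log2FC above 0 was found in 7657 of the 15704 genes and one below 0 in 8047. This does not show that the groups are alike. The median gene's 95% interval reached 0.45 to either side of its log2FC, and 89.8% of genes had an interval reaching less than 1. Changes smaller than these intervals can be missed with 5 against 6 mice, as can larger ones in genes that vary between animals. Since p was adjusted over 15704 genes and the intervals were not, larger changes can be missed in other genes too. Hgfac, with a log2FC of -1.14, had an adjusted p of 0.872 by edgeR. Since nothing passed, the genes below are given by their values.

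Genes of acid and enzyme secretion had medians near 0. The 17 parietal cell genes had a median log2FC of 0.05 (0.37 within lane 5) and the 5 chief cell genes 0.02 (0.45). The log2FC of Atp4a was 0.05 (-0.49 to 0.59), that of Atp4b, the other subunit of the proton pump, 0.16 (-0.34 to 0.65), that of Pgc 0.06 (-0.62 to 0.74) and that of intrinsic factor (Gif), which carries vitamin B12 and is made by chief cells in the mouse, -0.02 (-0.73 to 0.68).

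Slc26a9, a chloride channel and exchanger of gastric epithelium, lay at 127 to 178 with a median of 145.8 in fed stomach and at 140.1, 312 and 162 after 8 h and 190.8 and 175 after 12 h, with a log2FC of 0.42 (0.02 to 0.82). Libraries 8 h replicate 2 and 12 h replicate 1 lay above all fed libraries, and the other 3 fasted ones lay among them. In bulk tissue, fewer cells of a type and less RNA per cell cannot be told apart, here and in every result that follows.

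Among hormones, ghrelin (Ghrl) lay at 629.8 to 1696 with a median of 816 normalized CPM in the fed state and at 788, 923 and 819 after 8 h and 1083 and 796 after 12 h, a log2FC of -0.12 (-0.62 to 0.39). The groups overlap throughout. Somatostatin (Sst) had a log2FC of -0.23 (-0.75 to 0.29), and Hdc, which makes histamine, -0.01 (-0.52 to 0.50). The 20 endocrine genes tested had a median of -0.15 (-0.17 within lane 5 and 0.27 between 2 h and 0 h), beside -0.01 over all genes.

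Gastrin split the fasted animals. Gast (chr11:100334407-100336996, GRCm38) lay at 146.3 to 395 with a median of 194 in the fed state and at 226, 2.19 and 27.1 after 8 h and 11.2 and 5.11 after 12 h. So 4 of 5 fasted libraries lay below every fed one, while 8 h replicate 1 lay among the fed. The log2FC was -2.02 (-4.40 to 0.36) with all libraries, -4.24 without 8 h replicate 1 (edgeR, adjusted p = 0.0683) and -0.97 within lane 5. Chromogranin B (Chgb, chr2:132781278-132795079), a protein of hormone granules, lay at 81.4 to 133.4 with a median of 86.0 in fed stomach and at 82.5, 47.1 and 45.2 after 8 h and 25.6 and 15.7 after 12 h, with a log2FC of -1.14 (-1.87 to -0.42) and -0.57 within lane 5. Tph1, which starts serotonin synthesis in enterochromaffin cells and was chosen after its values were seen, lay at 3.27 to 12.5 with a median of 6.16 and at 5.92, 1.21 and 2.30 after 8 h and 1.03 and 1.75 after 12 h. In both genes the 4 libraries other than 8 h replicate 1 lay below all fed libraries. For Gast, Chgb and Tph1 that library was set apart after its values were seen. The share of all genes with this pattern is not given. In 51 of 15704 genes (0.325%) every fasted library lay below every fed one, which is stricter.

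Mucous genes of the surface and of the glands are given apart. The 17 genes of the mucous list had a median of -0.25 (-0.08 within lane 5 and -0.33 between 2 h and 0 h), 15 lay below 0, and 6 had an unadjusted p under 0.05, all on the low side, beside 2.71% of all genes. For the surface gastrokines Gkn1 and Gkn2 the log2FC was -0.08 (-0.78 to 0.62) and -0.22 (-0.97 to 0.53), for the surface trefoil factor Tff1 -0.25 (-0.96 to 0.46) and for the surface mucin Muc5ac -0.53 (-1.07 to 0.02) with -0.18 within lane 5. Trefoil factor 2 (Tff2, chr17:31141049-31144282), made by mucous neck and antral gland cells, lay at 2243 to 5892 with a median of 4193 in fed stomach and at 3711, 1253 and 1704 after 8 h and 2148 and 1804 after 12 h, with a log2FC of -0.96 (-1.63 to -0.28). The gland mucin Muc6 (chr7:141633456-141655319) lay at 467 to 1919.7 with a median of 1146 and at 557, 862 and 284 after 8 h and 1122 and 295 after 12 h, with -0.97 (-1.85 to -0.10). In both genes the groups overlap, Tff2 through 8 h replicate 1 and Muc6 through 3 of the 5 fasted libraries. Within lane 5 the log2FC was -0.74 for Tff2 and -0.79 for Muc6.

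The water channel Aqp5 (chr15:99590782-99594829), which marks glands of the antrum, had the lowest unadjusted p of the mucous list. It lay at 33.9 to 55.6 with a median of 44.5 in the fed state and at 34.2, 8.13 and 8.72 after 8 h and 13.1 and 2.82 after 12 h, with a log2FC of -1.72 (-2.74 to -0.70). Gkn3, a gastrokine of neck and antral gland cells chosen after its values were seen, lay at 473 to 2004 with a median of 663 and at 618, 110.4 and 100.6 after 8 h and 202 and 21.5 after 12 h, with a log2FC of -2.07 (-3.73 to -0.40) and -1.28 within lane 5. Its neighbours on chromosome 6 are Gkn1 and Gkn2, given above. For Aqp5 and Gkn3 the 4 libraries other than 8 h replicate 1 lay below all fed libraries, and 8 h replicate 1 lay within the fed range. Here too that library was set apart after its values were seen, and the share of all genes with this pattern is not given.

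**Figure D2:**
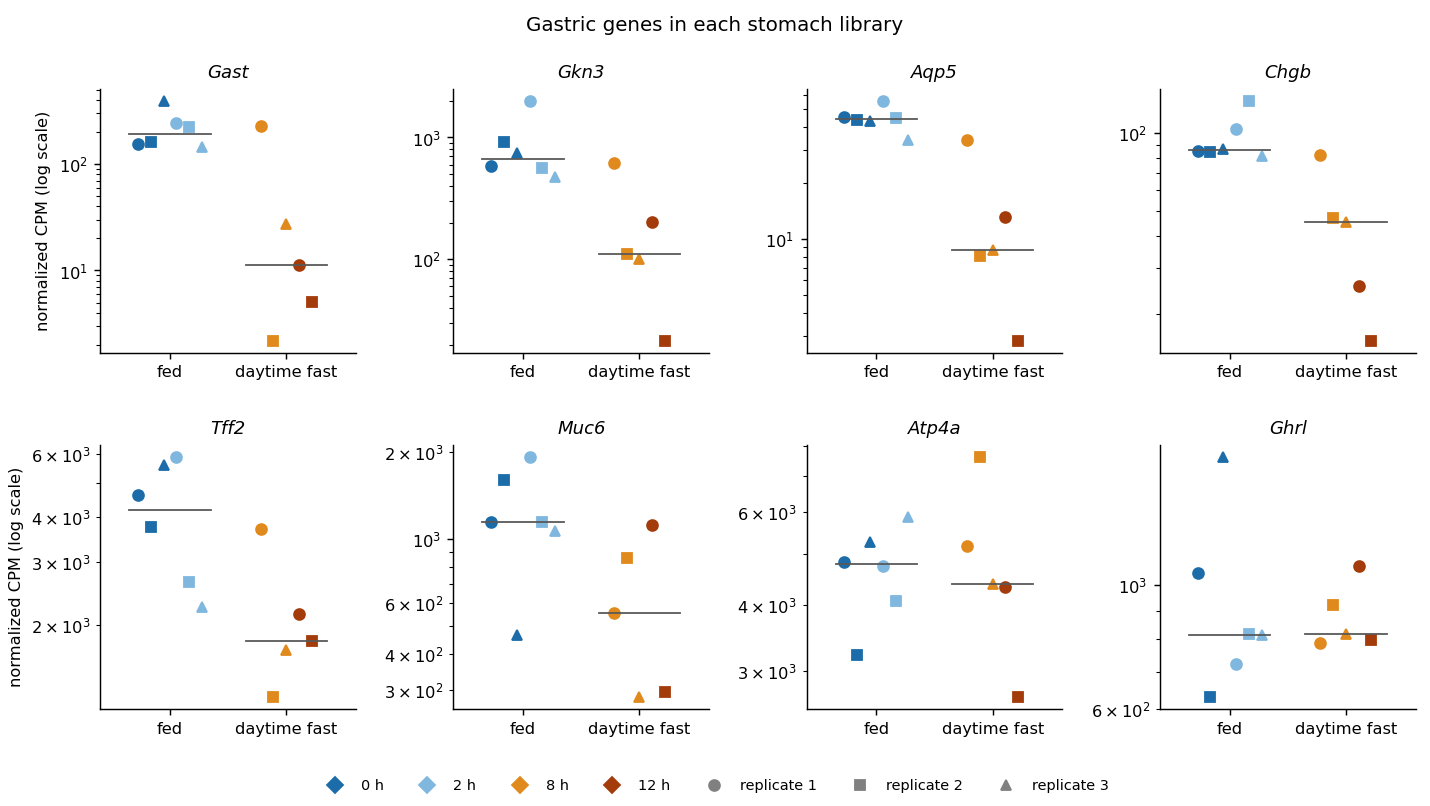
Normalized CPM (log scale) of 8 gastric genes in each stomach library, fed in blue and fasted in orange (8 h) or brown (12 h), with grey lines at the group medians. For Gast, Gkn3, Aqp5 and Chgb the 4 fasted libraries other than 8 h replicate 1 lie below all 6 fed libraries, while for Atp4a and Ghrl the groups overlap. That library was set apart after its values were seen, and the share of all genes with this pattern is not given.

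Each library was also left out in turn. Without 8 h replicate 1, 14 of 15605 genes (0.0897%) had an adjusted p under 0.05, all lower in the fast and all by more than 1 on the log2 scale, with 1128 at an unadjusted p under 0.05. Without any other single library the count was 0. All 14 are named here with their edgeR values in the remaining 10 libraries, so all were chosen by their values. Aqp5, Dmbt1 and Cela1 are also the genes with the smallest p of their lists in the full comparison. That comparison holds the same 10 libraries, and none of these genes passed in it. Vil1 (villin of microvilli) fell by 1.74 on the log2 scale (adjusted p = 0.00793), Gpa33 (a surface antigen of intestinal epithelium) by 2.51, Slc9a3 (a sodium and proton exchanger of the brush border) by 2.62, and Kcne3 (a subunit of epithelial potassium channels) by 2.08. Among secretory and surface proteins Aqp5 fell by 2.43, the membrane mucin Muc4 by 2.51, Dmbt1, a scavenger protein of mucosal surfaces, by 1.62, and the proteases Prss32 and Cela1 by 2.65 and 2.22. The enzymes Suox (sulfite oxidase), Gstm3 (glutathione transfer) and Acsm3 (acyl-CoA synthesis) fell by 1.22, 1.89 and 1.11, Samd5 fell by 2.32, and Tmem213 fell by 5.75. For Tmem213 this size is set by the floor, since it lay at 0, 0.0697, 0 and 0 normalized CPM in 8 h replicates 2 and 3 and both libraries of 12 h, at 2.27 in 8 h replicate 1 and at 1.13 to 2.58 with a median of 2.23 in fed stomach.

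Values by library are given for 3 of these genes. They passed only with 8 h replicate 1 left out, so the place of that library among the fed ones is part of how they were chosen. Vil1 lay at 43.8 to 91.9 with a median of 71.5 in fed stomach and at 60.6, 15.8 and 22.6 after 8 h and 24.6 and 19.8 after 12 h. Dmbt1 lay at 156.6 to 248 with a median of 172 and at 158, 56.5 and 62.2 after 8 h and 83.6 and 34.3 after 12 h. Slc9a3 lay at 11.2 to 21.9 with a median of 14.3 and at 11.3, 0.729 and 3.91 after 8 h and 1.93 and 3.36 after 12 h. In each of the 3 genes 8 h replicate 1 lay within the fed range and the other 4 fasted libraries lay below it. With all 11 libraries the log2FC was -1.26 (-1.97 to -0.56), -1.20 (-1.87 to -0.54) and -1.85 (-2.94 to -0.76), and within lane 5, where 8 h replicate 2 is set beside 8 h replicate 1, it was -0.85, -0.77 and -1.36.

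As a list, 8 of 12 enterocyte genes were tested, with a median log2FC of -0.58, -0.98 without 8 h replicate 1 and -0.77 within lane 5. The summed level of all 12 was 453, 454 and 562 at 0 h, 759.8, 381 and 372 at 2 h and 449, 217 and 247 after 8 h and 258 and 266 after 12 h, with 4 fasted libraries below all fed ones. Dmbt1, 1 of the 14 genes above, was the most abundant by counts, at 33.6% of the sum, and is also made by gastric epithelium. Without it the sum was 190.3 to 512 with a median of 286 in fed stomach and 291, 160.9 and 185 after 8 h and 174 and 232.1 after 12 h, so that 3 fasted libraries lay below all fed ones, and 12 h replicate 2 lay among them with 8 h replicate 1. Muc2 was at 0 in all 11 libraries, as in every other organ of the table, so it marks nothing here. Cdx1 and Cdx2 were at or below 2.96, and sucrase-isomaltase (Sis) was at 0 except in 0 h replicate 2 (1.34) and 2 h replicate 1 (5.92). How much antrum or pylorus each piece of tissue held was not recorded in the labels, and its part in these values was not tested.

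The regenerating protein Reg1 lay at 59.9 in 2 h replicate 1 and 10.4 in 0 h replicate 2, at 0.474 to 4.44 in the other 4 fed libraries, and at 0.887, 0.243 and 0.0697 after 8 h and 0.129 and 0 after 12 h. Its log2FC of -5.51 (-9.21 to -1.81) rests on values near the floor in the fast and on 2 fed animals, the same 2 that carried Sis.

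Cell cycle genes lay on the low side of the fed state as a group. The gastric epithelium renews itself from dividing cells of the isthmus and the antral gland base. Of 36 genes 35 were tested (Kif11 had hardly a count in any organ), and all 35 had a log2FC below 0, from -0.97 to -0.12, with a median of -0.53 beside -0.01 over all genes. None passed the adjusted test. In 27 of the 35 the unadjusted p was under 0.05 on the low side, which 426 of 15704 genes reached over the whole table (2.71%). Cell cycle genes are expressed together in dividing cells, so these are not 35 independent measurements.

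The summed level of the list was 865, 692 and 631 at 0 h, 728, 669.5 and 698 at 2 h and 626, 412 and 537 after 8 h and 476 and 467 after 12 h. By this sum every fasted library lay below every fed one, by a narrow margin for 8 h replicate 1. By the mean log2 level of the list the groups overlap, at 3.73 in 8 h replicate 1 and 3.69 in 0 h replicate 3, with the other 4 fasted libraries at 3.01 to 3.46 and the other 5 fed ones at 3.82 to 4.15. Of the fasted libraries 8 h replicate 1 was thus nearest the fed ones, as it was for Gast, Gkn3, Aqp5, Chgb, Vil1 and the enterocyte sum with Dmbt1, which were low in the other 4. Their part in the cell cycle values was not tested. Aqp5, Vil1 and Dmbt1 passed only without 8 h replicate 1, and Gkn3 was chosen after its values were seen. The place of that library in these genes is therefore part of how they were chosen. Plk1 (chr7:122159439-122169873), a kinase of mitosis, lay at 7.01 to 14.6 with a median of 11.6 and at 7.49, 4.25 and 6.63 after 8 h and 6.82 and 4.44 after 12 h, with a log2FC of -0.90 (-1.38 to -0.43). Top2a, which untangles DNA, had -0.67 (-1.09 to -0.25), the mitotic kinase Cdk1 -0.67 (-1.05 to -0.29), and the checkpoint kinase Bub1b -0.85 (-1.36 to -0.34). The 6 subunits of the replicative helicase, Mcm2 to Mcm7, ranged from -0.70 (Mcm5) to -0.40 (Mcm2). Cyclin D1 (Ccnd1), which acts before S phase and is also expressed in cells that do not divide, had -0.12 (-0.35 to 0.12). In 4 of the 35 genes (Cdk1, Mcm2, Mcm3 and Mcm5) every fasted library lay below every fed one, as in 51 of 15704 genes over the whole table (0.325%).

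The list's median was -0.47 at 8 h and -0.72 at 12 h against the same fed libraries, -0.48 within lane 5 and -0.72 without 8 h replicate 1. With each library left out in turn it stayed between -0.72 and -0.49, and with RLE and upper quartile scaling it was -0.54 and -0.53. Between 2 h and 0 h, both counted as fed, it was -0.02.

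**Figure D3:**
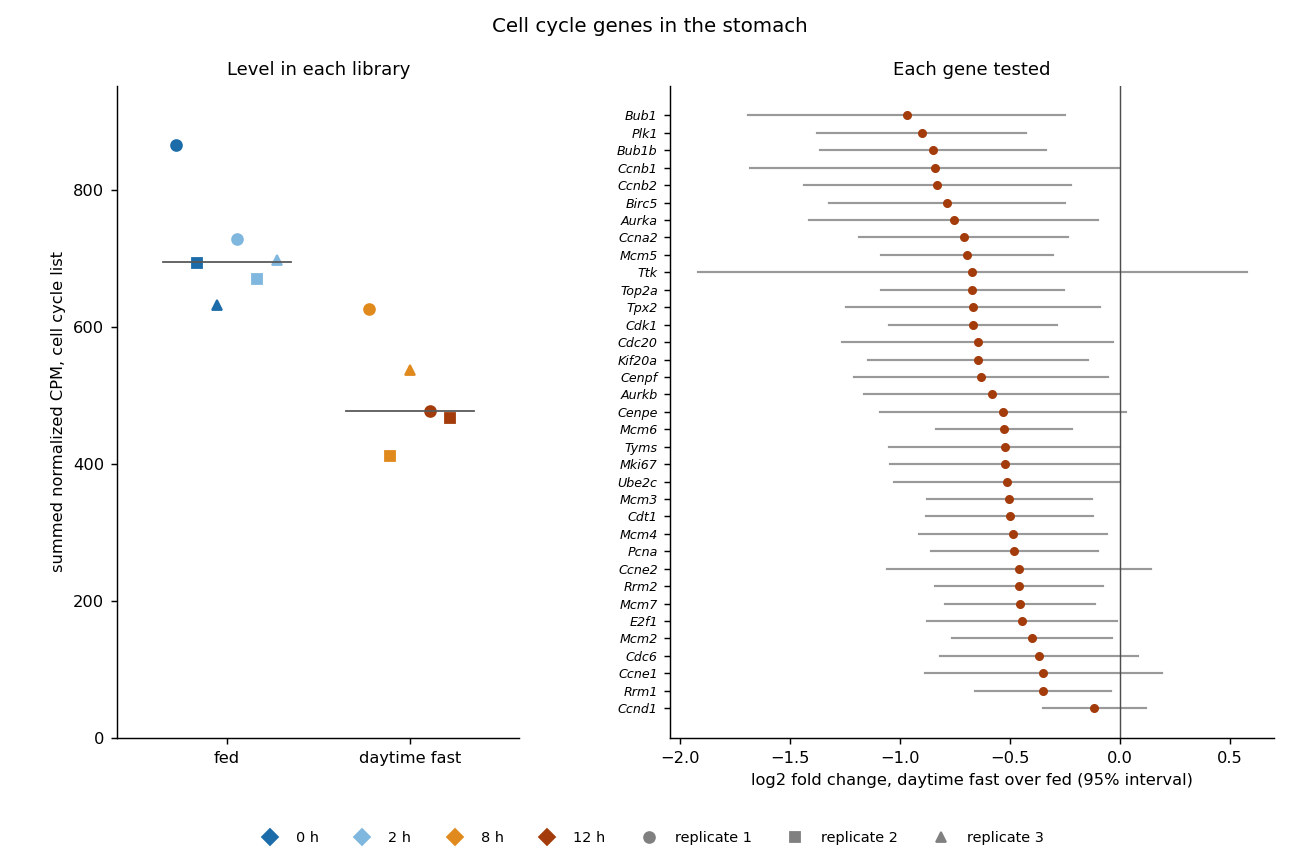
Left, summed normalized CPM of the cell cycle list in each stomach library, fed in blue and fasted in orange (8 h) or brown (12 h), with grey lines at the medians. Right, the log2 fold change of each of the 35 genes tested with its 95% interval, all 35 points lying left of 0 and none passing the adjusted test.

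Clock genes were read at the same time of day in all animals. The 17 core clock genes had a median log2FC of -0.03 and the 8 output factors 0.08 (-0.15 and -0.03 within lane 5). The repressor Nr1d1 (REV-ERB alpha) lay at 21.6 to 77.3 with a median of 57.2 in fed stomach and at 31.2, 28.8 and 20.4 after 8 h and 52.0 and 51.8 after 12 h, with -0.61 (-1.29 to 0.06). Dbp, a transcription factor under direct clock control, lay at 32.1 to 122.4 with a median of 84.7 and at 49.5, 33.1 and 27.8 after 8 h and 103.2 and 101.003 after 12 h, with -0.38 (-1.26 to 0.50). For both genes the 3 libraries of 8 h lay at the low end and those of 12 h within the fed range, and 0 h replicate 3 was the lowest fed library. The log2FC at 8 h alone was -1.07 for Nr1d1 and -1.15 for Dbp, and at 12 h -0.12 and 0.32. Per1, Per2 and Arntl had -0.28 (-1.09 to 0.52), 0.11 (-0.50 to 0.71) and 0.27 (-0.28 to 0.83). Bhlhe40, a repressor within the clock, had -0.35 (-0.68 to -0.03), and Nampt, of NAD synthesis, 0.22 (-0.07 to 0.51).

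Genes that switch tissues from glucose to fat lay close to the fed state. The 31 genes of fatty acid oxidation and PPAR alpha had a median of -0.06, the 7 ketone body genes -0.03, the 24 genes of FoxO and insulin signalling 0.02, the 25 of autophagy and lysosome 0.03, and the 25 of glycolysis and pyruvate use -0.06. Pdk4, which blocks pyruvate from oxidation, lay at 10.4 to 42.9 with a median of 27.8 in the fed state and at 27.6, 15.1 and 22.9 after 8 h and 19.6 and 18.2 after 12 h, with -0.38 (-1.12 to 0.37). Its lowest fed libraries were the 3 of 0 h, and the fasted libraries lay among the fed. Cpt1a, which admits fatty acids to mitochondria, had -0.12 (-0.49 to 0.25), the lipase inhibitor Angptl4 0.09 (-0.71 to 0.89), and Txnip, which restrains glucose uptake, 0.07 (-0.21 to 0.36). Fkbp5, a target of the glucocorticoid receptor, had -0.29 (-0.94 to 0.37), and the 18 glucocorticoid genes a median of 0.17 (-0.03 within lane 5).

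Lipid synthesis lists lay slightly to the low side. Of 25 genes of cholesterol synthesis and uptake 21 had a log2FC below 0, with a median of -0.20 (-0.29 within lane 5) and 4 at an unadjusted p under 0.05 on the low side, beside 2.71% of all genes. Between 2 h and 0 h, both counted as fed, the median of this list was -0.34, further from 0 than between fast and fed. The 22 genes of fatty acid synthesis had a median of -0.07 (-0.21 within lane 5 and -0.10 between 2 h and 0 h), with -0.43 (-0.82 to -0.05) for the desaturase Scd2. Of 23 amino acid transporters 15 lay below 0, with a median of -0.11 (-0.08 within lane 5 and 0.26 between 2 h and 0 h), and Slc43a1, which carries large neutral amino acids, lay at 1.002 to 3.99 with a median of 3.05 and at 0.789, 1.82 and 0.976 after 8 h and 1.03 and 0.941 after 12 h, with -1.32 (-2.16 to -0.48). In 3 of the 5 fasted libraries it lay below every fed value.

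Stress lists had small medians, and those of ER chaperones, heat shock and ribosomal genes change sign within lane 5. The ER chaperones (26 genes) had a median of -0.06 (0.19 within lane 5, as in the brackets that follow), the ATF4 response (23) 0.08 (0.04), heat shock genes (19) 0.06 (-0.07), immediate early genes (24) 0.15 (0.00) and cytosolic ribosomal proteins (73) 0.12 (-0.13). Among the 24 immediate early genes 5 lay higher and 2 lower at an unadjusted p under 0.05, beside 1.87% and 2.71% of all genes. Nupr1, a stress-induced nuclear protein, had 0.83 (0.13 to 1.52) and 1.31 within lane 5, led by 8 h replicate 2 at 913 beside a fed range of 156.2 to 437 with a median of 222. The phosphatase Dusp1 had 0.70 (0.14 to 1.25) and -0.03 within lane 5. Nr4a3, an early response receptor, had 0.92 (0.21 to 1.64) and 0.30 within lane 5, with 24.7 in 8 h replicate 3 and 5.03 to 10.8 in the other 4 fasted libraries. Left out in turn, single libraries moved it between 0.47 and 1.12.

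Duox2 (chr2:122279247-122298449), an oxidase that releases hydrogen peroxide at mucosal surfaces, lay at 15.2 to 42.3 with a median of 30.6 in fed stomach and at 47.3, 74.2 and 43.3 after 8 h and 50.6 and 53.4 after 12 h, with a log2FC of 0.80 (0.34 to 1.26) and 0.98 within lane 5. All 5 fasted libraries lay above all 6 fed ones, as in 13 of 15704 genes (0.0828%). The 8 defence genes tested of 20 had a median of -0.07. At an unadjusted p under 0.05, 3 of them lay higher and 2 lower, beside 1.87% and 2.71% of all genes. Interferon-stimulated genes lay on the high side in 20 of 23, with a median of 0.33, but of -0.13 within lane 5 and -0.57 between 2 h and 0 h, and 12 h replicate 2 had the highest summed level (543, the others 164.4 to 300.5). Of the 23, 3 lay higher and 0 lower at an unadjusted p under 0.05, beside 1.87% and 2.71% of all genes. Ifit1 had 1.31 (0.42 to 2.21) and 0.67 within lane 5. MHC class II (7 genes) had a median of 0.02 and chemokines and cytokines (13) of 0.14, with 0.38 (0.06 to 0.71) for Cxcl12.

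All 12 mitochondrially encoded mRNAs tested of 13 had a log2FC above 0, with a median of 0.59 and 0.24 within lane 5. The summed level of all 13 was 65204, 87594 and 30823 at 0 h, 48536, 77352 and 59105 at 2 h and 47833, 102440.3 and 55121 after 8 h and 138460.2 and 118799.7 after 12 h. The libraries 8 h replicate 2 and 12 h replicates 1 and 2 lay above all fed ones and the other 2 lay among them.

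Cells of the wall and blood complete the lists. Within the muscle coat, 14 smooth muscle genes had a median of 0.12 (-0.26 within lane 5), 15 of enteric neurons and glia 0.21 (-0.08) and 3 of interstitial cells of Cajal, the pacemaker cells, 0.09 (0.11). Ano1, the chloride channel of these pacemaker cells, had -0.47 (-0.83 to -0.12) and -0.26 within lane 5, and Kcnmb1, a potassium channel subunit of smooth muscle, 0.51 (0.14 to 0.88) and 0.12. Fibroblast and matrix genes (20) had -0.06, with 0.46 (0.09 to 0.83) for elastin, and within lane 5 -0.14 for the list and 0.14 for elastin. With all libraries and then within lane 5, endothelium (8) had -0.14 and 0.06, adipocytes (13) 0.16 and -0.13, macrophages (10) -0.01 and -0.03, and mast cells and granulocytes (7) 0.19 and -0.48. Forestomach epithelium (25) had 0.41 and the opposite sign within lane 5 (-0.29). For tissue next to the stomach and for blood, with all libraries and then within lane 5, the medians were as follows. The 10 liver genes had 1.30 and -1.30, skeletal muscle (15) -0.21 and -1.02, pancreatic acinar cells (16) -1.13 and -0.71, islet cells (2) -0.64 and -0.20, red blood cells (5) -0.57 and -0.60, B and plasma cells (4) 1.07 and 2.17, and T cells (2) 0.69 and 0.53. Single libraries moved these medians far. Left out in turn, they gave -1.58 to 3.24 for liver, -0.79 to 0.11 for skeletal muscle and -1.25 to -0.07 for pancreatic acinar cells. For islet cells they gave -0.97 to -0.36, for red blood cells -0.75 to 0.41, and for B and plasma cells -0.40 to 1.64.

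**Figure D4:**
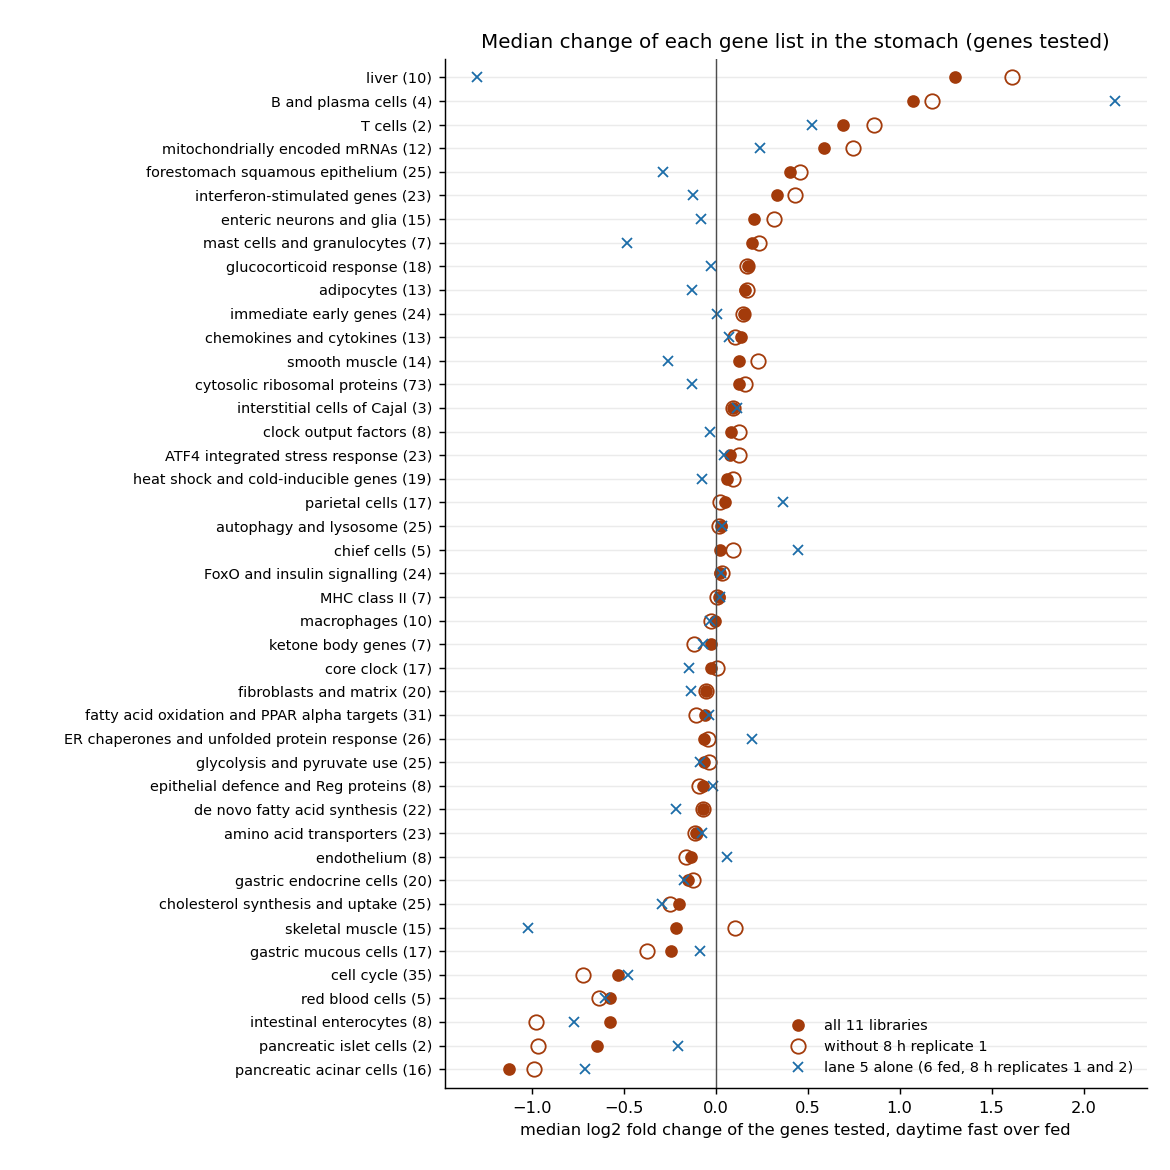
Median log2 fold change, daytime fast over fed, of the genes tested in each of 43 lists (number tested in brackets), with all 11 libraries (filled), without 8 h replicate 1 (open) and within lane 5 (cross). The cell cycle list keeps its side in all 3 (-0.53, -0.72 and -0.48), while liver, forestomach and interferon lists, among others, change sign within lane 5.

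The genes in this paragraph were chosen after their values were seen, and the first 3 had the lowest unadjusted p of the table. Hgfac, a protease that activates hepatocyte growth factor, had a log2FC of -1.14 (-1.66 to -0.63), with 7.39 to 14.8 in the fast and 16.8 to 37.2 in fed stomach. Hoxb8, a homeobox gene of posterior identity, had 1.22 (0.67 to 1.77), with 3.16 to 6.43 in the fast and 1.54 to 2.13 in fed stomach. Etv4, an ETS transcription factor downstream of growth factor signals, had -1.23 (-1.80 to -0.66), with 2.82 to 5.32 in the fast and 6.58 to 16.1 in fed stomach. Onecut3, a transcription factor with a wider difference, had -2.68 (-4.17 to -1.20), with 0 to 1.28 in the fast and 1.72 to 4.27 in fed stomach. In all 4 the groups do not overlap, which goes with how they were chosen, and none passed the adjusted test. Over the whole table every fasted library lay above every fed one in 13 of 15704 genes (0.0828%) and below in 51 (0.325%).

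By time, both fasts were set against the same 6 fed libraries in a fit that holds 0 h, 2 h, 8 h and 12 h as groups. A DEG is a gene that passed the adjusted threshold of 0.05 with a log2FC above 1 or below -1. At 8 h edgeR called 0 of 15704 genes (0%), with 351 at an unadjusted p under 0.05 and 0 by DESeq2. At 12 h edgeR called 0 (0%), with 2042 at an unadjusted p under 0.05, a smallest adjusted p of 0.0588 (Rcan2, with Chgb at the same value), and 46 higher and 76 lower DEGs by DESeq2. This comparison holds 2 mice at 12 h, both in lane 6. The log2FC of Chgb was -0.71 at 8 h and -2.20 at 12 h, and that of Rcan2, which inhibits calcineurin, 0.41 and 1.29. Between 12 h and 8 h edgeR called 0 (0%), with 1493 at an unadjusted p under 0.05 and 14 by DESeq2. Between 2 h and 0 h it called 0 (0%), with 1115 and 5, and the smallest adjusted p, 0.628, belonged to Pdk4 with a log2FC of 1.40.

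To see whether the stomach of a longer fast differs from that of the daytime fast, the 6 libraries of 18 h and 22 h, when the fast also spans part of the preceding night, were set against the 5 of 8 h and 12 h in a fit with the fed libraries. The daytime libraries are shared with the comparison above. All 6 late libraries were read in lane 6, with 3 of the 5 daytime libraries. Without regard to lane edgeR called 978 genes changed (6.01%), of which 223 were DEGs higher (1.37% of 16281 genes) and 106 lower (0.651%) in the late fast. Within lane 6, 6 libraries against 3, it called 0 of 15691 genes (smallest adjusted p 0.190, 1938 at an unadjusted p under 0.05), and with lane as covariate 0 (smallest adjusted p 0.173, 2195). So no gene passed once lane was taken into account, in fits that compare fewer libraries or estimate 1 more term. The count without regard to lane also moved with single animals, from 22 DEGs without 8 h replicate 1 to 665 without 22 h replicate 2.

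Lists of cell type markers had medians away from 0 in the late against the daytime fast, which were not tested and in which few genes passed. Without regard to lane and then within lane 6, the median log2FC of late over daytime fast was -0.93 and -0.66 for the parietal cell list, -0.96 and -0.41 for chief cells, -0.76 and -0.51 for mucous cells and -0.42 and -0.29 for endocrine cells. It was -0.72 and -0.51 for pancreatic acinar cells, -1.07 and -0.66 for islet cells, -0.72 and -0.36 for enterocytes, -2.48 and -3.13 for liver and -3.44 and -1.70 for B and plasma cells, and on the high side 0.51 and 0.28 for smooth muscle, 0.61 and 0.55 for enteric neurons and glia and 1.56 and 1.13 for skeletal muscle. Over the 16281 genes it was 0.01 without regard to lane. In that fit 0 of 17 parietal, 1 of 5 chief cell, 2 of 17 mucous, 0 of 20 endocrine and 1 of 16 acinar genes passed as lower. So did 0 of 2 islet, 0 of 8 enterocyte, 1 of 10 liver and 2 of 4 B and plasma cell genes. As higher passed 1 of 14 smooth muscle, 1 of 15 enteric neuron and glia and 1 of 15 skeletal muscle genes. Over all genes 2.73% passed as lower and 3.27% as higher. Within lane 6 none passed. Within the daytime fast the liver sum was highest in 12 h replicate 2, and that of B and plasma cells in 8 h replicate 2. Without regard to lane and without 1 library at a time, the log2FC of Fga (liver list) ranged from -3.58 to 0.60. That of Ighm (B and plasma cells) ranged from -3.28 to -1.42.

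Libraries 18 h replicates 1 and 3 are labelled as 2 mice and were the most alike of all pairs of the 17 stomach libraries by 2 of 3 measures, all chosen after seeing the data. Over the 500 most variable genes their log2 levels correlated at 0.982, where the median pair had 0.793 and the next, 2 h replicates 2 and 3, 0.972. The chi-square of their counts per degree of freedom was 4.67, where counting noise alone gives 1 and that next pair had 12.9. Over all genes tested the pair correlated at 0.976, in place 8 of the pairs. Whether they come from different mice cannot be told from the counts. With their counts summed as 1 library, a choice made after seeing the data, edgeR called 55 of 16145 genes changed, of which 37 were DEGs (26 higher and 11 lower), without regard to lane. Most of the late calls are thus lost when the pair counts as 1 mouse, as they are without 8 h replicate 1.

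Scaled with all 17 libraries, the parietal list, led by Atp4a, summed to 12114, 16427 and 10439.8 after 8 h, 10591 and 6824 after 12 h, 3933, 6559.7 and 3797 after 18 h and 8331, 10141 and 2714 after 22 h normalized CPM. The smooth muscle list, led by Myh11, summed to 8303, 8232 and 14289 after 8 h, 12211 and 15540.1 after 12 h, 20531, 9206 and 20129 after 18 h and 13857, 17359 and 25881 after 22 h. Libraries 18 h replicates 1 and 3 and 22 h replicate 3 were lowest in the parietal and highest in the smooth muscle sum, outside the range of the daytime fast in both. The part of these cell types in the late results that follow was not tested.

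The ER chaperones lay lower in the late fast. Of 26 genes of that list 16 had an adjusted p under 0.05 in the fit without lane, all lower, beside 445 of 16281 genes (2.73%), and 6 of them were DEGs. Without 1 library at a time 4 to 20 passed, and with 18 h replicates 1 and 3 as 1 library 5. The list's median was -0.74, and within lane 6 it was -0.66 with 0 genes passing. Without regard to lane the parietal, chief cell and mucous medians given above are lower than this, and within lane 6 the parietal one is equal and the other 2 are nearer 0. Genes of that list named here were chosen after their values were seen. The luminal chaperone Hspa5 (BiP) had a log2FC of -1.52 (adjusted p = 0.0118), Hsp90b1 (GRP94) of -1.01 (adjusted p = 0.0123) and the disulfide isomerases Pdia4 and Pdia6 of -1.05 (adjusted p = 0.0118) and -0.99 (adjusted p = 0.0125) by edgeR without regard to lane. These 4 passed there without each of the 17 libraries in turn, and with 18 h replicates 1 and 3 as 1 library their adjusted p was 0.0345, 0.0345, 0.0345 and 0.0363. Within lane 6 they had -1.21 (-1.66 to -0.76), -0.83 (-1.18 to -0.48), -0.81 (-1.13 to -0.49) and -0.85 (-1.27 to -0.42). In the daytime fast against fed the same 4 had -0.02 (-0.58 to 0.55), -0.03 (-0.43 to 0.37), -0.12 (-0.50 to 0.26) and -0.22 (-0.59 to 0.15).

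Some clock and fuel genes lay higher in the late than in the daytime fast. The median was 0.44 and 0.37 for the core clock list and 0.50 and 0.54 for the output factors, without regard to lane and within lane 6, which is no higher than for enteric neurons and glia. In the fit without lane Per1 had a log2FC of 1.42 (edgeR, adjusted p = 0.0285), Dbp 1.33 (adjusted p = 0.0349), and Pdk4 1.44 (adjusted p = 0.0337), and within lane 6 they had 1.24 (0.73 to 1.75), 1.04 (0.27 to 1.80) and 1.47 (0.73 to 2.22), where none passed. Of the 17 core clock genes 5 passed as higher and 0 as lower in the fit without lane, and of the 8 output factors 3 as higher, beside 3.27% higher and 2.73% lower over all genes. Per1, Dbp and Pdk4 kept an adjusted p under 0.05 in 12, 12 and 10 of the 17 fits without 1 library. With 18 h replicates 1 and 3 as 1 library they did not pass (adjusted p 0.0672, 0.0752 and 0.0706), nor did any core clock gene. Pik3ip1, an inhibitor of PI3-kinase in the FoxO list that was chosen after its values were seen, had 1.26 (adjusted p = 0.0125), passed in all 17, and had a 95% interval of 0.56 to 1.64 within lane 6, where it did not pass. The cell cycle list, which lay at -0.53 in the daytime fast against fed, had a median of -0.47 in the late against the daytime fast and -0.39 within lane 6. Without regard to lane 1 gene of it passed as higher (Ube2c) and 3 as lower (Mcm2, Mcm5 and Rrm1).

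The livers of the same 11 mice were compared in the same way, to set the stomach beside an organ known to answer to food. In liver edgeR called 1154 of 13546 genes changed (8.52%), 575 higher and 579 lower, of which 88 were DEGs. Lanes were split by time in liver as in stomach, with the 6 fed libraries and 8 h replicates 1 and 2 in lane 1 and the other 3 in lane 2. With lane as covariate 89 liver genes passed as higher and 27 as lower, and within lane 1, with 2 fasted libraries, 409 of 13123 passed. In these livers lists of other tissue had medians away from 0. Without lane they were 3.86 for skeletal muscle (15 genes), 1.65 for smooth muscle (11) and 1.40 for forestomach (3). With lane as covariate they were -5.16, -0.12 and 0.24. The part of such tissue in the liver result was not tested. A count of 1154 beside 0 does not show that the organs differ, so the difference of the 2 changes was tested for each gene with the mouse as a block. EdgeR called 0 of 16676 genes (0%), with 1433 at an unadjusted p under 0.05, a smallest adjusted p of 0.161, and 15 by DESeq2. With lane by organ as covariate it called 0 (1011). It called 5 without the mouse of 0 h replicate 3 and 2 without that of 8 h replicate 1. The median gene's 95% interval reached 0.33 to either side in liver and 0.45 in stomach. Of the cell cycle list 22 genes were tested in liver, with a median of -0.11 and 0 changed, beside -0.53 in stomach. With lane as covariate the liver median was -0.29, and within 1 lane it was -0.28 in liver and -0.48 in stomach. Of the 26 ER genes 6 fell in liver in the fit without lane, beside 4.27% of all liver genes, and 0 passed with lane as covariate, but the median there did not shrink, at -0.31 without lane, -0.36 with lane as covariate and -0.35 within lane 1. In stomach it was -0.06, and 0.19 within lane 5. Of the 25 cholesterol genes 3 fell in liver in the fit without lane and 1 passed with lane as covariate, with a median of -0.15 there and -0.20 in stomach. Whether these list medians differ between the organs was not tested.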

How the data were processed

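Stomach libraries were compared within the table of raw counts that the authors deposited, made by them with TopHat2 2.1.1 and HTSeq 0.9.1 on GRCm38 with Gencode M16. All 162 columns of its 53686 genes matched a sample. In it 24 gene names had been turned into dates, 2 of which occur more than 1 time, and these were left as they are. Gene positions come from Gencode M21. Counts were tested in R 4.3.3 with edgeR 4.0.16 (quasi-likelihood, TMM, robust dispersion), keeping genes whose CPM equals 10 counts in a library of median size in at least 3 libraries, and p-values were adjusted by Benjamini and Hochberg over all genes kept. Intervals come from the log2FC and the F statistic. The scripts were tested on simulated data.

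Alternatives were DESeq2 1.42.0, limma 3.58.1 voom with quality weights, RLE and upper quartile scaling, no filter and one of 50 counts, lane as covariate, lane 5 alone, a replicate block, inclusion of 12 h replicate 3, 0 h alone as fed, all 17 retained stomach libraries, time points as groups, and each library left out. Chosen after seeing the data were the fits without 2 libraries at once and with forestomach level as covariate, and in the late and liver comparisons the leaving out of single libraries or mice, the fits with lane and the sum of 18 h replicates 1 and 3. The 12 h replicate 3 library was left out for its low total, following the study.

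Named genes are the changed genes with the smallest adjusted p and the largest changes (none here), in each of 43 lists of 789 genes the changed members with the smallest adjusted p or else the member with the smallest, and 26 genes of gastric function, clock and fuel use taken whatever their result, 69 in all, not all of which are reported. Further genes were chosen after their values were seen, apart from those that state the content of a list. Members and lists were chosen with earlier results of these data known. Figures were drawn with Python 3.11.15 and matplotlib 3.10.9.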

Additional observations from a re-analysis of the deposited data

Results flagged for a closer look

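A library was marked where its value of a named gene or of a summed list lay far above or far below those of the other libraries of its own group, fed or daytime fast. Chance alone marks about 1 in 20 groups of values, and 43 values were marked in 224 groups. All values are normalized CPM, and what lies behind them was not tested. Library 8 h replicate 1 was high in Gast 226, Reg1 0.887, Tff1 16532, Gkn2 17355, Ano1 51.2, Cela1 163 and Pyy 4.04, and in the summed list of intestinal enterocytes 449. Library 0 h replicate 3 was high in Sst 485, Gkn2 30794, Bhlha15 66.98, Cela1 331, Pyy 6.87, Alas2 5.01, Fga 5.87, Nupr1 437 and mt-Nd3 3.72, and in the summed lists of gastric endocrine cells 3255, pancreatic acinar cells 72335, red blood cells 142.98, liver 2747, ER chaperones and unfolded protein response 8525, chemokines and cytokines 256 and cytosolic ribosomal proteins 9468, and low in Pfkp 49.5, and in the summed list of clock output factors 271. Library 2 h replicate 1 was high in Reg1 59.9 and Dmbt1 248. Library 0 h replicate 1 was high in Muc5ac 4617, and low in Lipa 19.9 and Cxcl12 40.9. Library 8 h replicate 2 was high in Bhlha15 133.2, Ighm 206, Nupr1 913 and Slc43a1 1.82, and in the summed lists of B and plasma cells 458 and ATF4 integrated stress response 1987. Library 12 h replicate 2 was low in Tek 4.30, and high in Fga 26.8, Acaa1b 37.7 and mt-Nd3 11.3, and in the summed list of interferon-stimulated genes 543. Library 2 h replicate 3 was high in Cd4 1.33.

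In 6 of 69 named genes the late fast differed from the daytime fast by the edgeR test without regard to lane, which marked them, beside 978 of 16281 genes (6.01%) over the whole table. Within lane 6 none of them passed, nor with 18 h replicates 1 and 3 as 1 library. The log2FC of late over daytime fast was Per1 1.42, Dbp 1.33, Pdk4 1.44, Bhlha15 -1.38, Pdia3 -0.72 and Slc43a1 1.64. The daytime libraries are those of the comparison with fed stomach.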

How the results depend on the processing

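The count of 0 changed genes and 0 DEGs between daytime fast and fed held with every other tool, scaling, filter, lane and sample choice fixed for the comparison, apart from leaving out single libraries, which gave 0 to 14 for each, the 14 coming without 8 h replicate 1. Without 8 h replicate 1 and 12 h replicate 1 together, a choice made after seeing the data, each was 9. The cause was not tested. DESeq2 gave 46 higher and 76 lower DEGs at 12 h against fed, 14 at 12 h against 8 h and 5 at 2 h against 0 h, where edgeR gave 0, and 578 for the late against the daytime fast, where edgeR gave 329, 22 to 665 with single libraries left out, 37 with 18 h replicates 1 and 3 as 1 library, and 0 within lane 6 and with lane as covariate, 3 choices made after seeing the data. For the difference between stomach and liver DESeq2 with the mouse block gave 15, and edgeR 0 to 5 with single mice left out. Of 1831 values of the 69 named genes under 27 alternatives, 79 changed sign, in 25 genes, and 5 values of 3 genes passed the threshold.

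Mice of different times share only a replicate number, so no pairing was used. With the replicate number as block the main comparison again gave 0, and the late against the daytime fast 262 DEGs. Of 15 pairs with the same number 2 had a correlation over 0.1, and 5 of 11 libraries correlated best with their own number.

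With 5 against 6 mice, 1 library decides whether any gene passes. Lane 6 holds no fed library, 12 h holds 2 mice, and tissue from outside the glands differs between libraries. The 95% intervals are those of single genes, and counts cannot part cell number from RNA per cell.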
